A study of Nematostella vectensis with 136 samples.

Results

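The light-cycled arm (LD) of a time course in the starlet sea anemone, Nematostella vectensis, was searched for genes whose RNA level follows a cycle of 12 h. Its libraries were chosen by label and depth alone: all LD libraries with a total of at least 179339 counts, which is the median total divided by 3. This left 67 of the 136 libraries of the series, 24 from T1 to T6 and 43 from T7 to T17. The arm in constant darkness (DD), set beside it, gave 66 libraries, 22 and 44 over the same time points. LD animals spent 1 month under a light:dark cycle and were sampled each 4 h, first with the cycle running and then with it taken away. Sampling each 4 h for 24 h gives T1 to T6, so T7 was taken as the first time point after removal (T7 to T17). This split is an assumption. DD animals spent that month and all 17 time points in darkness. All were adults, each arm had 4 replicates per time point, lettered A to D, and RNA came from whole animals. In such samples fewer cells of a type and less RNA per cell cannot be told apart. The clock time of T1, the light intensity and the number of animals in a library are not given, so times are in hours after T1. The labels do not say that replicates were separate animals or cultures, and p-values measure only the spread between these libraries.

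Rhythms with a period near 12 h are known from shore animals, in which they follow the tides and are called circatidal. They are also known from mouse liver, where genes of the unfolded protein response are among those that cycle. N. vectensis burrows in the mud of estuaries and salt marshes. A 12 h component need not come from a 12 h rhythm, because it is also the next harmonic of any daily wave that is not a pure sine, for example of a gene that answers to both lights-on and lights-off. In an arm under a light cycle the 12 h component therefore reads both.

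Depth was similar in the arms. Kept LD libraries held 213651 to 735080 counts (median 552010), and kept DD libraries held 207665 to 749294 (median 538007.5). The libraries left out were LD T14 replicate D (27546 counts), DD T1 replicate D (140371) and DD T4 replicate B (2185). In both arms T1 to T12 were sequenced in lane 5 and T13 to T17 in lane 7. Of the 24384 genes in the table, 10648 had enough counts to be tested. The gene identifiers could not be matched to names, so genes are given by identifier without a role.

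Sampling each 4 h gives a 12 h cycle 3 places. T1, T4, T7, T10, T13 and T16 fall at the 0 h place. T2, T5, T8, T11, T14 and T17 fall at the 4 h place, and T3, T6, T9, T12 and T15 at the 8 h place. The test for a 12 h component is thus a test of whether the mean log2 level differs among the 3 places, and on this grid a 12 h cycle and a 6 h cycle cannot be told apart. The size of a component is its amplitude on the log2 scale, the distance from the mean to the peak of the fitted wave. An amplitude of 1 is a 4-fold difference between peak and trough, and 0.5 is a 2-fold difference.

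No gene had a 12 h component in LD that passed the test, neither with the light cycle nor after it was taken away. With the cycle running, edgeR's quasi-likelihood test with Benjamini-Hochberg adjustment called 0 of 10648 genes (0%), and the smallest adjusted p was 0.576. Unadjusted p was under 0.05 for 540 genes, 5.07% of those tested, where 532.4 would be so with no 12 h component in any gene. DESeq2 and limma-voom also called 0 genes, with 546 and 495 genes at an unadjusted p under 0.05. After removal the LD count was again 0 (0%), the smallest adjusted p was 0.793, and 541 genes (5.08%) had an unadjusted p under 0.05. DESeq2 and limma-voom called 0 genes there too, with 550 and 552 under that unadjusted limit. The number of LD genes with a low p was thus close to the number that flat genes give, in both periods as defined. It was higher in parts of the later period, with 841 genes (7.9%) over T8 to T17 and 843 (7.92%) over T13 to T17 alone, and 0 called in either.

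The data bounded how large a 12 h component the LD genes could have had. The fitted LD amplitudes had a median of 0.20 over T1 to T6 and the upper 95% bounds a median of 0.64, with 80.8% of genes bounded below 1 and 29.8% below 0.5. The longer span T7 to T17 gave LD a median amplitude of 0.16 and a median upper bound of 0.50, with 89.7% of genes bounded below 1 and 49.3% below 0.5. Abundance set much of this. Among LD genes with a mean log2 CPM (CPM being the count scaled for library size) of at least 6, the median upper bound over T1 to T6 was 0.40, and among those under 4 it was 0.96. For the genes not bounded below 1, the data allow a peak-to-trough difference of 4-fold. In DD the bounds were alike: the median was 0.67 over T1 to T6 and 0.52 over T7 to T17.

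**Figure D1:**
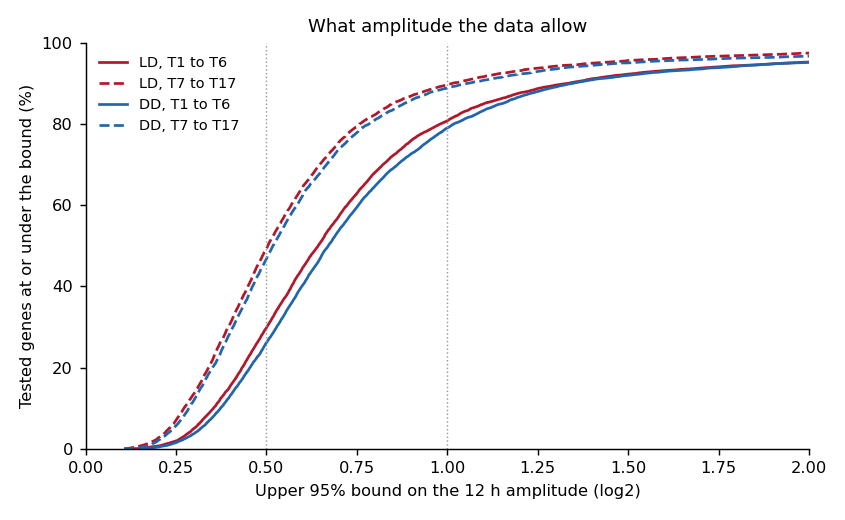
Share of the 10648 tested genes (vertical axis, %) whose upper 95% bound on the 12 h amplitude (horizontal axis, log2) is at or under a given value, for LD and DD over T1 to T6 and T7 to T17. Dotted lines mark amplitudes of 0.5 and 1; in LD 29.8% of genes over T1 to T6 and 49.3% over T7 to T17 lie left of 0.5.

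Shuffling whole time points within a period, with their replicates kept together, asked whether the real order of LD samples held more 12 h variation than other orders of the same samples. It did not. There are 15 distinct ways to place the 6 time points of T1 to T6, so the smallest p this exact permutation test can give is 0.0667. The real LD order had 540 genes with an unadjusted p under 0.05, against 429 to 1380 (median 730) in the 14 shuffled orders, 12 of which had more (exact permutation, one-sided p = 0.867). The real LD order had 0 genes called, and 13 of the 14 shuffled orders had at least 1, with a median of 5.5 and a maximum of 15.

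After removal of the cycle the real LD order stood near the low end of its shuffled orders. It had 541 genes with an unadjusted p under 0.05, against 474 to 2995 (median 1297) in 99 shuffled orders, 96 of which had more (one-sided permutation p = 0.97, smallest possible 0.01). It had 0 genes called, while 84 of the 99 shuffled orders had at least 1 and the median was 15. The LD orders with the highest counts placed the time points as follows. From T1 to T6 the highest was T1 with T3, T2 with T4 and T5 with T6, with 1380 genes. From T7 to T17, 4 of the 5 highest put T7, T8 and T9 together, up to 2995 genes of which 1857 were called. How much slow change across a period added to the shuffled counts was not tested.

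In DD the real order sat closer to the middle of its shuffled orders. On the first day DD had 389 genes (3.65%) with an unadjusted p under 0.05 and 346 to 599 (median 393.5) in the shuffled orders (exact permutation p = 0.6). Later DD had 852 (8%) and 572 to 1697 (median 935) in the shuffled orders (permutation p = 0.64). The 852 DD genes are above the 532.4 that flat genes would give, yet 63 of the 99 shuffled DD orders had more.

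**Figure D2:**
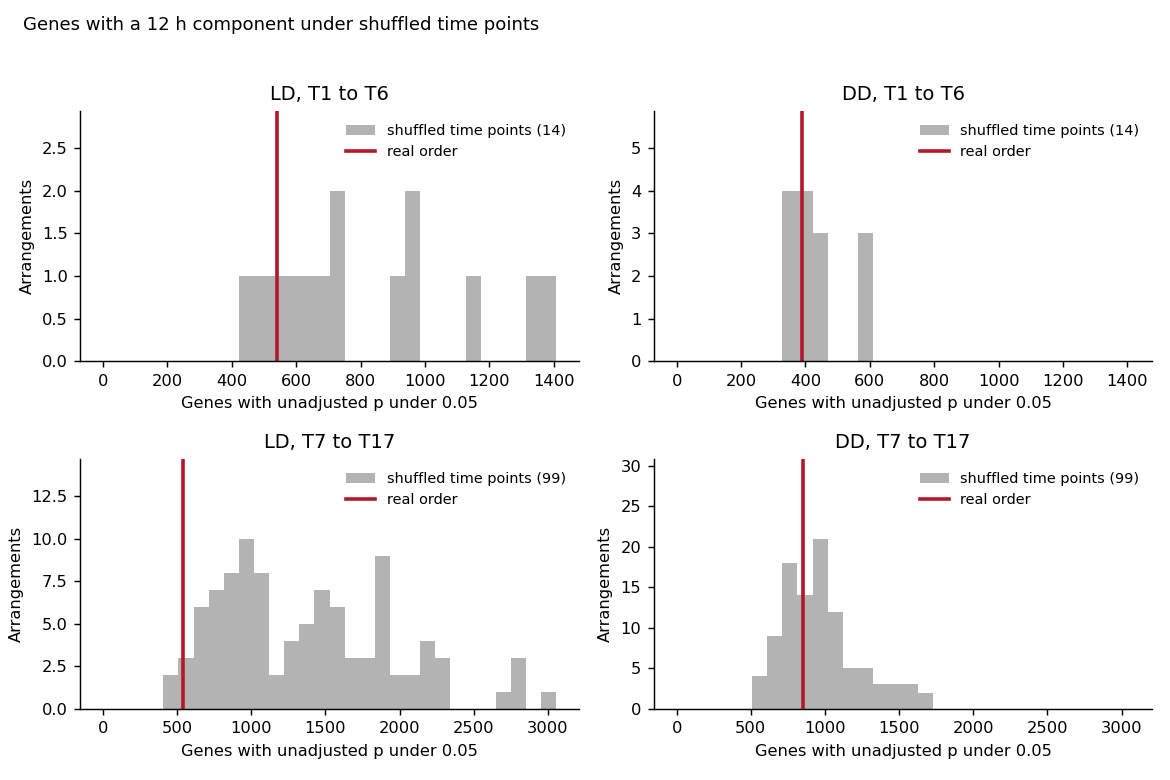
Number of genes with an unadjusted p under 0.05 (horizontal axis) for the real order of time points (red line) and for shuffled orders (grey bars, number of arrangements on the vertical axis), LD left and DD right, T1 to T6 above and T7 to T17 below. The red line lies at 540 and 541 genes in LD, below most of the grey bars, and at 389 and 852 genes in DD, near their middle.

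A further test of each gene took its time point means, and not the libraries, as the units. For T7 to T17 the exact permutation test over all 5775 arrangements gave 285 LD genes (2.68%) with an unadjusted p under 0.05, below the 5% of flat genes, and the smallest adjusted p was 1. In DD it gave 427 genes (4.01%), with a smallest adjusted p of 0.996. For T1 to T6, where this test cannot fall below 0.0667 and so cannot call a gene, 526 LD genes and 704 DD genes reached the smallest possible p of 0.0667, where flat genes would give 710.

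The first-day means of 6 time points split exactly into a 24 h, a 12 h and an 8 h component, which showed where the variation of LD genes lay. With independent time point means of equal spread, the components would hold 40%, 40% and 20% of it on average. In LD they held means of 46.3%, 35.9% and 17.7% over all genes, and in DD 40%, 39.4% and 20.6%. LD was thus above that share at 24 h and below it at both shorter periods, and DD was within 1 percentage point of it at each. Slow change across the 6 time points also adds to the 24 h share, and a daily rhythm was not told apart from it. These shares describe all genes at once, and genes that vary together are not independent.

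**Figure D3:**
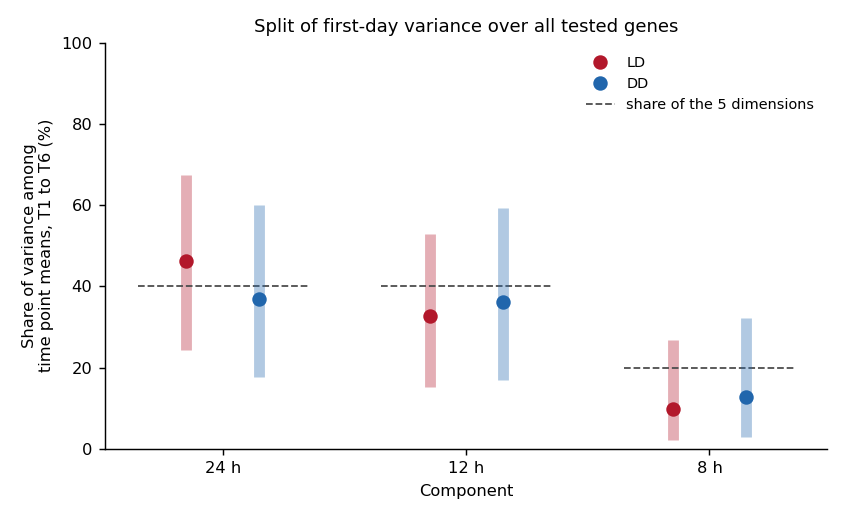
Share of the variance among the T1 to T6 time point means (vertical axis, %) held by the 24 h, 12 h and 8 h components over the 10648 tested genes; points are medians and bars run over the middle quartiles, LD in red and DD in blue, with dashed lines at the share each component has of the 5 dimensions. The LD median is 46.3% at 24 h and 32.6% at 12 h, and the DD medians are 36.8% and 36.1%. The dashed lines are what independent time point means of equal spread give on average, so they compare with the means in the text and not with these medians.

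Genes called for a 24 h component in LD on the first day had 12 h components of about the size found over all genes. A single day of sampling cannot show that such a 24 h component repeats. On the first day 13 genes (0.122%) were called for a 24 h component in LD. Their median 12 h amplitude was 0.17, against 0.20 over all tested genes, beside a median 24 h amplitude of 1.38. The 12 h component held a median of 3.13% of their first-day variance, and the 24 h component, which chose them, 92.7%.

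NVE8107, which had the largest 24 h amplitude of the 13, showed this most plainly. In LD it had 1.67, 4.18, 8.67 and 11.0 CPM at T1, 1.38, 1.58, 8.50 and 5.16 at T2, and 9.35, 5.93, 10.1 and 4.94 at T3. It then had 45.3, 24.2, 37.8 and 39.7 CPM at T4, 100.4, 72.0, 44.1 and 64.6 at T5, and 37.3, 32.6, 33.5 and 44.3 at T6. All LD libraries of T4 to T6 lay above all those of T1 to T3, with a single high stretch in the day. Its LD amplitude was 2.16 ± 0.19 (SE) at 24 h and 0.13 ± 0.21 at 12 h (edgeR quasi-likelihood adjusted p = 1 for 12 h), and 12 h held 0.365% of its variance.

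The other 3 genes with the largest 24 h amplitudes in LD differed somewhat in shape. NVE14677, highest in LD at T1 with 117.5 to 247.1 CPM, had 24 h and 12 h amplitudes of 1.60 ± 0.28 and 0.11 ± 0.28. NVE4116, highest at T5 and T6, had 1.92 ± 0.21 and 0.44 ± 0.21. NVE12898 had 1.98 ± 0.40 and 0.77 ± 0.40, with its LD level at T5 and T6 carried by single libraries of 146.4, 96.9 and 157.2 CPM beside others of 1.95 to 17.2 CPM. None of the 12 h components passed the test, with adjusted p-values of 0.977 to 1. Among all 13 genes, 1 had an unadjusted 12 h p under 0.05. This was NVE13065, singled out after its values were seen, with a 12 h amplitude of 0.92 ± 0.29 (edgeR quasi-likelihood unadjusted p = 0.00819, adjusted p = 0.947) and 27.1% of its variance at 12 h.

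After removal of the cycle, 895 genes (8.41%) were called for a 24 h component in LD. Of these, 36 (4.02%) had an unadjusted 12 h p under 0.05, against 5.08% of all genes. Their median 12 h amplitude was 0.22, against 0.16 over all genes.

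The LD gene with the smallest 12 h p over T1 to T6 was NVE15830. At the 0 h place its LD libraries had a lowest, median and highest value of 20.2, 51.2 and 97.4 CPM, at the 4 h place 9.23, 20.7 and 37.0 CPM, and at the 8 h place 35.6, 57.4 and 103 CPM (n = 8 each). T2 and T5 were thus its low time points in LD, with some overlap: T3 replicate B (35.6 CPM), T4 replicates B and C (20.2 and 25.8 CPM) and T6 replicate C (35.9 CPM) were within the range of the 4 h place. The fitted LD amplitude was 0.89 ± 0.19 (SE), with an upper 95% bound of 1.37 and a peak at 9.9 h. The edgeR quasi-likelihood adjusted p was 0.576, and the exact permutation p over its 15 arrangements was 0.133. The 12 h component held 91.5% of its first-day variance in LD.

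In DD NVE15830 also had most of its first-day variance at 12 h, 93.0%. Its DD libraries had 10.05, 22.7 and 24.1 CPM at the 0 h place (n = 6), 19.6, 30.4 and 37.9 at the 4 h place and 29.0, 45.9 and 63.6 at the 8 h place (n = 8 each). The low place was therefore the 4 h place in LD and the 0 h place in DD, while the 8 h place was highest in both. The DD amplitude was 0.68 ± 0.20, peaking at 7.2 h (edgeR quasi-likelihood adjusted p = 1), and the difference between arms did not pass the test either (adjusted p = 1). After removal the LD amplitude of NVE15830 was 0.18 ± 0.14 with an upper bound of 0.53. The change, T7 to T17 minus T1 to T6, did not pass the test (edgeR quasi-likelihood adjusted p = 0.794), and the first-day estimate is that of the gene with the smallest p.

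NVE16239, next by p over T1 to T6 in LD, was a gene of few libraries. It was at 0 in every LD library of these time points except T3 replicates B and D (37.1 and 41.2 CPM), T5 replicate C (1.57 CPM) and T6 replicates B and D (32.6 and 64.5 CPM). The 4 libraries with high values all lay at the 8 h place, and the other 4 libraries of that place were at 0. No amplitude is given for it, because the LD libraries of several time points were all at 0. Its edgeR quasi-likelihood adjusted p was 0.65 and its exact permutation p 0.2. In DD the gene was also high in single libraries, at 35.9 CPM in 1 library of T1, 43.1 in 1 of T4, and 25.2 and 42.8 in 2 of T6, so at the 0 h and the 8 h place.

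After removal the smallest 12 h p in LD belonged to NVE15124. Its LD libraries had 3.00, 13.6 and 71.3 CPM at the 0 h place (lowest, median and highest, n = 16), 0, 1.84 and 12.1 at the 4 h place (n = 15), and 0, 6.07 and 47.1 at the 8 h place (n = 12). The 0 h place was highest and the 4 h place lowest, with overlap among all 3. The LD amplitude was 1.35 ± 0.32, peaking at 10.7 h in the cycle (edgeR quasi-likelihood adjusted p = 0.793). Its exact permutation p over 5775 arrangements was 0.00952, and 1 after adjustment.

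NVE15124 had other orders of places in the other period and arm. In LD over T1 to T6 its fitted peak was at 3.6 h (amplitude 0.88 ± 0.40), with medians of 3.12, 5.91 and 6.13 CPM at the 3 places, and the change of the component, T7 to T17 minus T1 to T6, had an adjusted p of 0.606 by edgeR's quasi-likelihood test. In DD over T7 to T17 its places had medians of 3.84, 8.09 and 6.65 CPM and a fitted peak at 5.0 h (0.52 ± 0.30), and the difference, LD minus DD, had an adjusted p of 0.296. Neither difference passed the test. In DD over T1 to T6 the medians were 4.69, 1.90 and 7.49 CPM, so the 4 h place was lowest there too.

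NVE19262, the other gene with a low 12 h p in LD over T7 to T17, had a few libraries far above the rest. Its LD medians at the 0 h, 4 h and 8 h places were 6.88, 0 and 3.27 CPM, and its highest LD values over T7 to T17 were 423.8 CPM in T13 replicate B, 154.4 in T11 replicate C and 147.4 in T7 replicate B. The LD amplitude was 1.94 ± 0.47, with its peak at the 0 h place (edgeR quasi-likelihood adjusted p = 0.793, exact permutation p = 0.0026, adjusted 1). It was 0.77 without replicate B of every time point, 3.02 without replicate C and 1.04 with limma-voom, and over its 18 alternatives the adjusted p ran between 0.335 and 1. NVE19262 belongs to a cluster of 27 co-varying genes, built from the 400 most variable genes of these same libraries. Of the 27, 12 (44.4%, against 5.08% of all tested genes) had an unadjusted 12 h p under 0.05 in LD over T7 to T17. Over T1 to T6 in LD, 1 (3.7%, against 5.07%) did so. In DD 0 of the 27 did so over T7 to T17 (8% of all genes) and 13 (48.1%, against 3.65%) over T1 to T6. These genes were picked for their variation in the tested libraries, vary together and do not count as separate observations. Their shares beside those of all genes are therefore no test of the cluster. None of them was called in any of these tests.

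**Figure D4:**
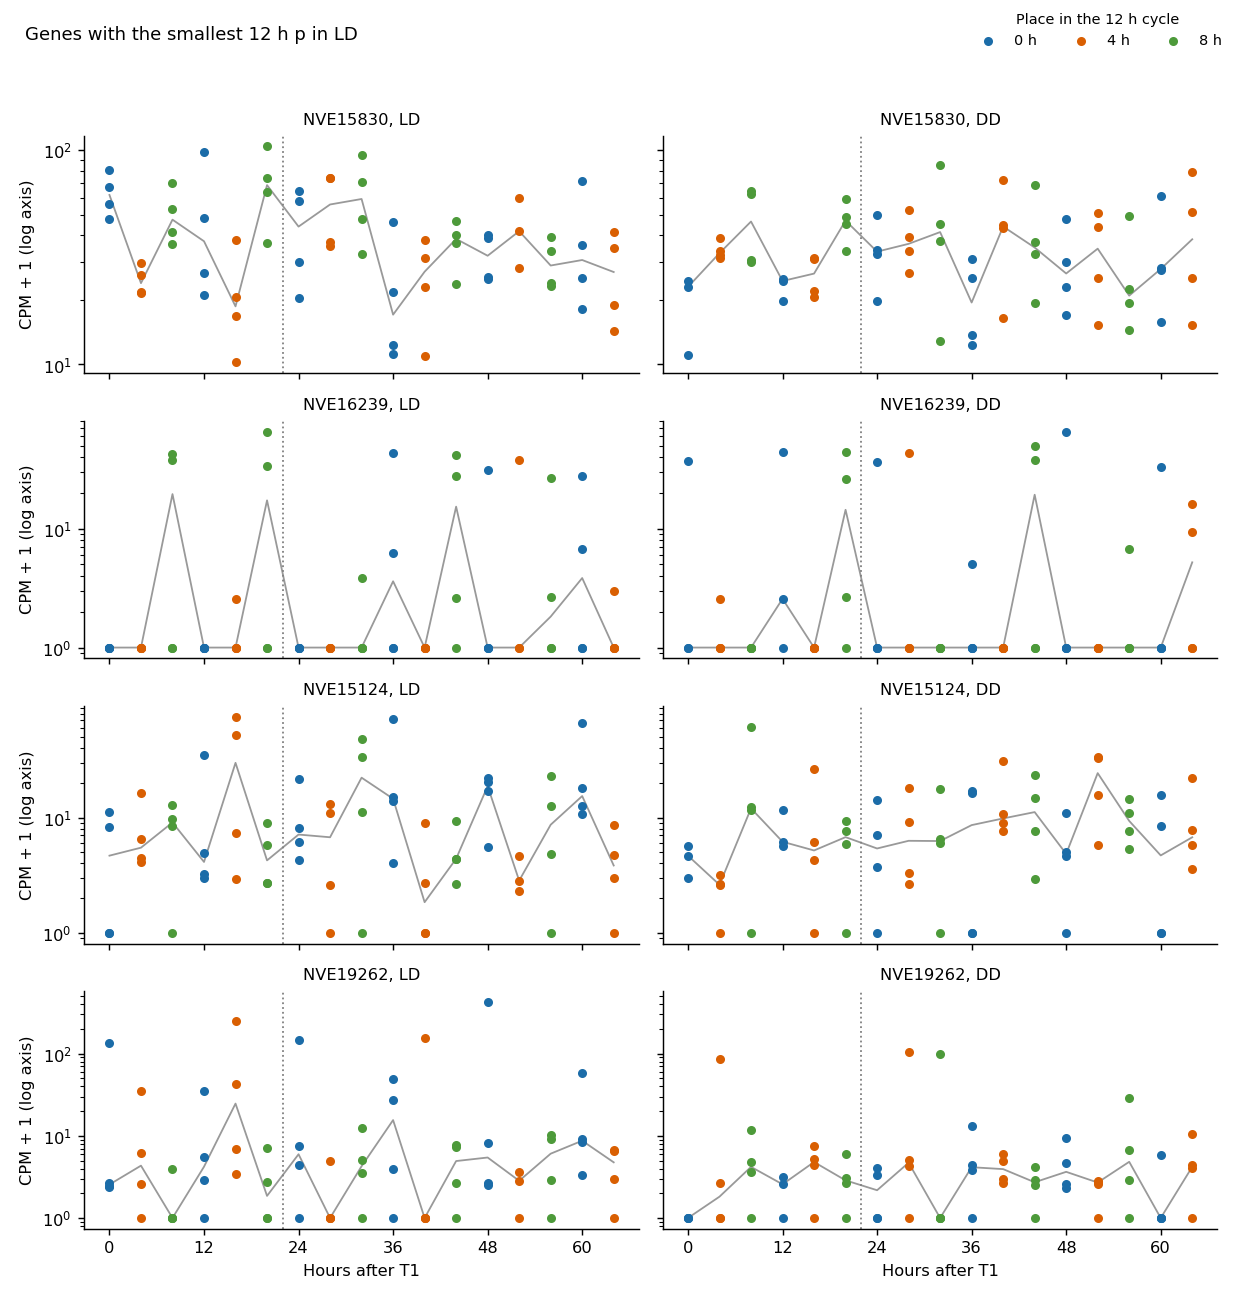
CPM + 1 (vertical axis, log scale) against hours after T1 for the 4 genes with the smallest 12 h p in LD. LD is left and DD right. Each point is a library, coloured by its place in the 12 h cycle, and lines join medians. The dotted line, drawn between T6 and T7, marks where removal of the light cycle is taken to lie. NVE15830 is low at the 4 h place (orange) over T1 to T6 in LD, where the 8 libraries lie between 9.23 and 37.0 CPM, and NVE16239 and NVE19262 rest on few libraries with high values.

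The low-p genes of LD peaked most often at the 8 h place over T1 to T6 and at the 0 h place over T7 to T17. Of the 540 genes over T1 to T6, 49.6% peaked at the 8 h place, against 37.4% of all tested genes. Of the 541 over T7 to T17, 38.8%, 30.1% and 31.1% peaked at the 0 h, 4 h and 8 h places, beside 31.8%, 34.4% and 33.8% of all tested genes. A second cluster of 131 co-varying genes, high in 15 libraries of which 13 were LD, was part of these lists: 33 of its genes (25.2%, against 5.07% of all tested genes) had an unadjusted p under 0.05 in LD over T1 to T6, and 1 (0.763%, against 5.08%) over T7 to T17. These genes too vary together and were picked for their variation in the same libraries. In LD over T1 to T6 the libraries above the midpoint of that cluster's score were 2, both from T6 and so at the 8 h place. Without the 15 libraries, when 11759 genes passed the filter, 0 LD genes were called and 439 (3.73%) had an unadjusted p under 0.05 over T1 to T6, with 0 and 798 (6.79%) over T7 to T17.

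A 12 h cycle should repeat its peak in the next cycle, and over all genes in LD it did so no more often than flat genes would. Over T1 to T3 and T4 to T6, 28.2% of LD genes and 31.9% of DD genes had fitted peaks within 2 h of each other, where 33.3% would with no cycle. Over T7 to T9 and T10 to T12 the shares were 32.9% in LD and 33.0% in DD. Over T10 to T12 and T13 to T15 they were 31.3% in LD and 34.5% in DD.

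Nor did the low-p genes of the light cycle keep a component along their first-day peak afterwards. This measure does not see a component kept at another peak time. The number of these genes was close to the 532.4 that flat genes give, and a list of flat genes would read the same. For the 540 LD genes of T1 to T6 the T7 to T17 component was measured along the first-day peak. Its median was -0.0058 on the log2 scale over T7 to T17, against a median amplitude of 0.59 over T1 to T6, and 47.0% of the genes were positive, beside 47.7% of all tested genes. The lists of low-p LD genes shared 29 genes. This was 5.36% of the 541 of T7 to T17 (5.07% of all tested genes) and 5.37% of the 540 of T1 to T6 (5.08% of all tested genes). Within the time after removal, 429 LD genes had an unadjusted p under 0.05 over T7 to T12 (0 called). Measured over T13 to T17, in other libraries and another lane, their median was -0.0035 and 49.4% were positive, beside 48.2% of all genes.

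In DD the low-p genes of LD had small components along their LD peaks. The 540 LD genes of T1 to T6 had a median of 0.06 along their LD peak in DD at the same time points, and 62.2% were positive, beside 56.1% of all genes. They shared 36 genes with the low-p list of DD. This was 6.67% of the LD list, against 3.65% of all tested genes with a low p in DD. It was 9.25% of the DD list, against 5.07% of all tested genes with a low p in LD. Whether this overlap exceeds that of unrelated lists was not tested, and genes that vary together are not independent. The 541 LD genes of T7 to T17 had a median of -0.02 in DD, with 43.1% positive beside 47.0% of all genes. They shared 48 genes with the DD list, 8.87% of the LD list (8% of all tested genes) and 5.63% of the DD list (5.08% of all tested genes).

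Tested directly, no difference in the 12 h component between LD and DD passed the test for any gene. For T1 to T6, edgeR's quasi-likelihood test called 0 genes (0%), with a smallest adjusted p of 0.605 and 321 genes (3.01%) at an unadjusted p under 0.05; DESeq2 and limma-voom called 0, with 318 and 397. For T7 to T17 it called 0 (0%), with a smallest adjusted p of 0.296 and 835 genes (7.84%) at an unadjusted p under 0.05; DESeq2 and limma-voom called 0, with 862 and 850. The size of a difference was bounded less tightly than that of a component: the upper 95% bound was below 1 for 57.4% of genes over T1 to T6 and 74.7% over T7 to T17.

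The genes nearest to a difference between the arms had their highest median at different places in LD and DD. They were picked for a small p of that difference, so unlike places follow from the choice and are no further support. On the first day NVE8268 had medians of 7.10, 5.68 and 8.38 CPM at the 0 h, 4 h and 8 h places in LD, against 1.92, 9.10 and 3.00 CPM in DD. Its level in DD was highest at the 4 h place, where LD was lowest, and the length of the difference was 1.67 ± 0.36 (edgeR quasi-likelihood adjusted p = 0.605). NVE5214 had medians of 19.0, 12.8 and 10.8 CPM in LD, against 9.29, 21.6 and 6.09 CPM in DD, with a difference of 1.14 ± 0.27 (adjusted p = 1). Both have few counts per library, a mean of 1.17 to 11.0 at each of these places.

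NVE20919 was nearest to a difference over T7 to T17. Its LD medians were 11.4, 7.95 and 8.96 CPM at the 0 h, 4 h and 8 h places, against 7.50, 15.0 and 8.69 CPM in DD. LD was highest at the 0 h place (amplitude 0.46 ± 0.14, peak at 11.0 h) and DD at the 4 h place (0.48 ± 0.14, peak at 4.3 h), and the ranges of all places overlapped. The length of the difference was 0.92 ± 0.20, with an adjusted p of 0.296 by edgeR's quasi-likelihood test. Without replicate C of every time point the adjusted p was 0.0223 and the length 1.32; over its 18 alternatives the adjusted p ran between 0.0223 and 1. Exact permutation p-values over time points were 0.0102 in LD and 0.00537 in DD, and 1 and 0.996 after adjustment.

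In DD itself edgeR called 2 genes (0.0188%) over T7 to T17, and 0 (0%) over T1 to T6. DESeq2 and limma-voom called 18 and 2 over T7 to T17, with 846 and 834 genes at an unadjusted p under 0.05. Over T1 to T6 both called 0, with 382 and 450 under that limit. The shuffled DD orders of T7 to T17, tested with edgeR, called a median of 9 genes, and 69 of 99 called more than 2. NVE12877 had 68.1, 240.1 and 352 CPM at the 0 h place in LD (lowest, median and highest), 38.0, 176.1 and 371 at the 4 h place and 40.2, 127 and 443 at the 8 h place. In DD it had 57.1, 268.8 and 398 CPM at the 0 h place, 242.1, 428 and 961 at the 4 h place and 22.2, 251.1 and 549 at the 8 h place. The 4 h place thus stood highest in DD, with overlap, and the 0 h place had the highest median in LD.

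The DD amplitude of NVE12877 was 0.73 ± 0.14 with a peak at 4.3 h (edgeR quasi-likelihood adjusted p = 0.0354), and the LD amplitude was 0.39 ± 0.15 with a peak at 0.8 h (adjusted p = 0.917). The difference, LD minus DD, did not pass (adjusted p = 0.296). The DD call held in 8 of 19 alternatives. It was lost when any replicate letter was left out, with adjusted p-values of 0.103 to 0.397. It was also lost with no filter on low counts (0.0518), with only the libraries of the comparison (0.0639) and with the 24 h component fitted jointly (0.0512). The same held with cosine and sine in place of time point means (0.293), over T7 to T12 (0.928), T13 to T17 (0.0912) and T8 to T17 (0.0786). The exact permutation p over time points was 0.0829. NVE12877 also had a 24 h component in LD over T7 to T17, of 0.73 ± 0.16 (adjusted p = 0.00661).

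NVE24602, the other DD gene, had medians of 40.85, 41.4 and 37.95 CPM in LD at the 0 h, 4 h and 8 h places, against 46.1, 52.6 and 31.9 CPM in DD. The 8 h place was low in DD, at 16.65 to 43.1 CPM, and T16 and T17 were its high time points in DD, with up to 137 CPM at T16. Its amplitude was 0.22 ± 0.10 in LD (edgeR quasi-likelihood adjusted p = 0.917) and 0.59 ± 0.11 in DD (adjusted p = 0.0195). The DD call was lost without replicate B, C or D (adjusted p = 0.07, 0.209 and 0.402), with no filter on low counts (0.0518), with only the libraries of the comparison (0.0681) and with cosine and sine in place of time point means (0.172). Over T7 to T12 alone the DD amplitude was 0.28, with an adjusted p of 1, and over T13 to T17 alone it was 0.99 (0.0048). The exact permutation p over all time points was 0.0883.

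**Figure D5:**
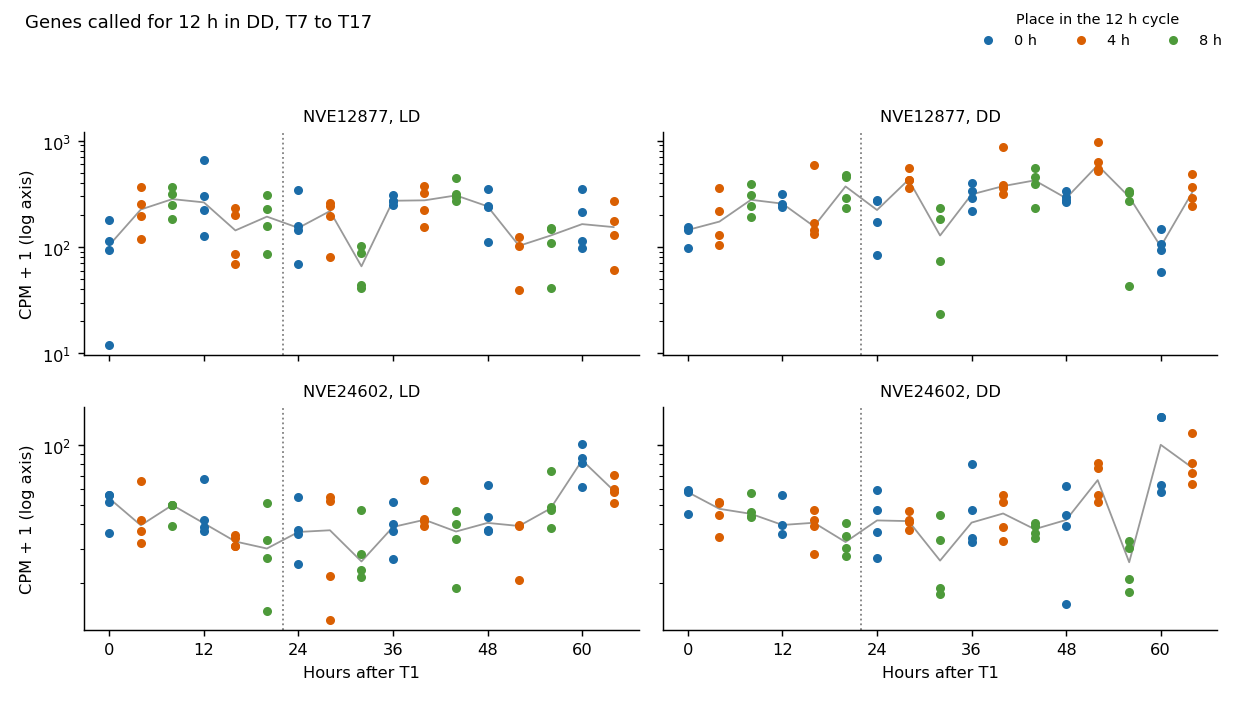
CPM + 1 (vertical axis, log scale) against hours after T1 for the 2 genes called for 12 h in DD over T7 to T17. LD is left and DD right. Each point is a library, coloured by its place in the 12 h cycle, and lines join medians. The dotted line, drawn between T6 and T7, marks where removal of the light cycle is taken to lie. In DD, NVE12877 has its highest median at the 4 h place (428 CPM), and NVE24602 reaches 137 CPM at T16.

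Taking the light cycle away changed the 12 h component of no LD gene past the test. For T7 to T17 minus T1 to T6 in LD, edgeR's quasi-likelihood test called 0 genes (0%), the smallest adjusted p was 0.211 and 584 genes (5.48%) had an unadjusted p under 0.05; DESeq2 called 0, with 583. Limma-voom called 1 gene and had 594. The called gene was neither NVE9806 nor NVE6970, the genes described below. The upper 95% bound on the change was below 1 for 65.7% of genes.

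NVE9806 came nearest to such a change. In LD over T7 to T17 it had medians of 45.3, 65.3 and 52.1 CPM at the 0 h, 4 h and 8 h places, against 67.1, 43.8 and 64.4 CPM over T1 to T6 in LD. The 4 h place was the highest after removal and the lowest with the cycle running. The length of the change was 0.59 ± 0.12 (edgeR quasi-likelihood adjusted p = 0.211), and without the 15 libraries of the 131-gene cluster it was 0.72 and the adjusted p 0.015, the lowest of 16 alternatives, which reached 0.741. DD, which lost no cycle, also had its highest median at the 4 h place later and its lowest there on the first day, with medians of 55.4, 67.9 and 50.7 CPM over T7 to T17 and 69.6, 52.3 and 68.3 CPM over T1 to T6. The LD and DD components did not differ past the test in either period (adjusted p = 0.684 over T7 to T17 and 1 over T1 to T6).

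NVE6970, next for a change in LD, had medians of 132, 103 and 73.9 CPM at the 0 h, 4 h and 8 h places over T7 to T17, against 54.1, 88.6 and 126 CPM over T1 to T6. The order of the places in LD was thus turned round between the periods. The change had a length of 1.34 ± 0.29 (edgeR quasi-likelihood adjusted p = 0.401); without replicate C of every time point the adjusted p was 0.0206, the lowest of 16 alternatives, which reached 1, and the length 1.67. A single LD library, T14 replicate B, reached 1261 CPM, beside 86.95 and 108.6 in the other libraries of its time point. DD, which lost no cycle, had medians of 108.6, 80.2 and 81.3 CPM over T7 to T17, against 85.5, 79.4 and 109.3 CPM over T1 to T6. Its highest median thus also moved from the 8 h to the 0 h place. The LD and DD components did not differ past the test in either period (edgeR quasi-likelihood adjusted p = 0.792 over T7 to T17).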

How the data were processed

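RNA was sequenced from 136 whole-animal samples. The authors deposited 1 table of whole-number counts per gene, not normalized. The submitters' processing notes name Bowtie2, with no version, and per the labels the genome is that of Putnam et al. How reads were counted, with or without strand, and how reads of similar genes were shared out is not stated in the labels or the table, so copies and overlapping genes may hold each other's reads. Per the labels, tissue was kept in RNAlater and RNA came from an Ambion RNAqueous kit. The table of gene names matched 0 identifiers, so gene and marker lists by description could not be tested.

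edgeR 4.0.16 (R 4.3.3) tested the counts. filterByExpr over the 34 groups (arm and time point) kept 10648 genes, TMM scaled the libraries, and 1 quasi-likelihood fit of 34 group means to 133 libraries (99 residual degrees of freedom) gave each 12 h cosine and sine pair as contrasts, adjusted by Benjamini-Hochberg over all tested genes at 0.05. SEs of amplitudes and upper 95% bounds come from the F statistic of the pair. CPM use TMM-scaled sizes; permutations of single genes use log2 CPM with a prior count of 2. Shuffles of T7 to T17 used 99 seeded orders. For each test except DD over T1 to T6, the text describes all called genes (up to 4), or else the 2 of smallest p. For DD over T1 to T6 those were NVE5824 and NVE8268 (edgeR quasi-likelihood adjusted p = 0.356 for both), not described for that test. The text adds the 4 first-day 24 h genes of largest amplitude in LD whose mean log2 CPM was 2 or more. Clusters were built from the 400 most variable genes by correlation (average linkage, cut at 0.5, 20 genes or more). The question, the clusters and the lists were chosen with earlier results of these data known. Replicate letters were not used to pair samples across groups in the reported fit. Alternatives were DESeq2 1.42.0, limma-voom (limma 3.58.1), RLE factors, other filters, other libraries or time points, a linear trend and a joint 24 h term. Scripts were tested on simulated data. No fitted amplitude of a named gene is printed for an arm and period in which all libraries of a time point were at 0.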

Additional observations from a re-analysis of the deposited data

Results flagged for a closer look

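In 9 of 54 groups of 4 libraries behind the genes named for a 12 h component, 1 library stood apart from the other 3 by Dixon's test at 95%. That test flags 5% of groups by chance only for normally distributed values. These are CPM with many libraries at 0, where 1 value beside 3 libraries at 0 is always flagged. Groups with all libraries at 0 are never flagged, so the 9 are not set against 5%. NVE19262 in LD had 5 of them: 147.4 CPM in T7 replicate B (others 0 to 6.499), 3.958 in T8 replicate C (others 0), 154.4 in T11 replicate C (others 0), 423.8 in T13 replicate B (others 1.51 to 7.26) and 56.87 in T16 replicate C (others 2.34 to 8.13). NVE15124 in LD had 71.33 CPM in T10 replicate B (others 3.00 to 14.1) and 65.02 in T16 replicate D (others 9.75 to 17.1). NVE16239 in LD had 1.574 CPM in T5 replicate C, a single count beside libraries at 0. NVE12877 in DD had 875.1 CPM in T11 replicate B (others 311 to 386).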

How the results depend on the processing

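The LD counts of genes with a 12 h component stayed at 0 under all 15 alternatives over T1 to T6 and all 19 over T7 to T17, among them lane 5 (T7 to T12) and lane 7 (T13 to T17) alone; the share of tested genes with an unadjusted p under 0.05 then ran over 3.38% to 6.13% and 4.03% to 7.92%, the highest over T13 to T17 (843 of 10648) and T8 to T17 (841). The difference between arms over T1 to T6 also stayed at 0 in all 15. Over T7 to T17 the difference was 0 in 17 of 19 alternatives, 1 over T13 to T17 alone, and 0 to 5 when 1 replicate letter was left out, the 5 being without C. The change in LD, 0 genes in the reported fit, was 1 with limma-voom, 1 without the 15 libraries of the 131-gene cluster, 1 with cosine and sine in place of time point means, and 0 to 1 when a letter was left out. The call without those 15 libraries was NVE9806, and the call without C was NVE6970. Calls by limma-voom, with cosine and sine and without D were of genes not described here. For DD over T1 to T6, leaving out a letter gave 0 to 1. For DD over T7 to T17, 2 genes in the reported fit, the count was 18 with DESeq2, 5 with the filter of 10 counts in at least 50% of the libraries, 0 with no filter, 0 with only the libraries of the comparison, 1 with the 24 h component fitted jointly, 0 with cosine and sine in place of means, 0 over T7 to T12, 12 over T13 to T17 and 0 to 3 when a letter was left out. The cause was not tested. With the replicate letter as a replicate block the counts were those of the reported fit, 2 for DD over T7 to T17 and 0 for the other 6 tests. Deviations of same-letter libraries had a median correlation of -0.00215 over 2150 pairs, with 10.6% of pairs over 0.1. Libraries of other letters had a median of -0.0032. What libraries of the same letter share is not given and was not tested. By the count of genes with an unadjusted p under 0.05 and by the median F, the place among shuffled orders of T7 to T17 had a p of 0.97 and 0.94 in LD and of 0.64 and 0.48 in DD; for T1 to T6 the smallest possible p is 0.0667, so no statistic could pass there. What limits these results is the spread between libraries, 6 or 11 time points a period, and depth: among scarce LD genes (mean log2 CPM under 4) the upper bound was below 1 for 53.6% over T1 to T6.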
